A study of Mus musculus with 9 samples.

Results

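Cadherins and protocadherins are adhesion receptors of the cell surface, and their genes were followed here through 3 populations of smooth muscle cells sorted from mouse lung. The genes were taken by name: every protein-coding row with the symbol Cdh followed by a number, or with a symbol that begins with Pcdh. That rule gave 78 of the 21049 genes in the table, and 68 of them passed a filter on low values (at least 10 in at least 3 libraries). The 10 that did not pass had values between 0 and 41 over all libraries and are counted but not tested.

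RNA sequencing was deposited for 9 libraries, 3 in each of 3 groups. BSMCs were bronchial smooth muscle cells from a line named NVSMC-effector, with the genotype Chrm2/Acta2-CreER/R26-GFP. PASMCs were smooth muscle cells of the pulmonary artery from a line named ASMC-effector, with the genotype Cspg4/Acta2-CreER/R26-GFP. SmMCll was the whole pulmonary smooth muscle population, vein included, from animals with the transgene tg-Acta2-GFP. All 9 libraries were labelled as tamoxifen-treated, including those of the transgene line, whose genotype names no recombinase: injections into the peritoneum for 3 days, at 0.75 mg for every 10 g of weight and made up in corn oil at 20 mg/mL. The cells came from a fluorescence sort, and at most 10 ng of RNA entered each SMART-Seq v4 library. Age and number of animals were not given in the sources used here, nor whether the 3 libraries of a group came from separate animals, so the p-values measure only the spread between these libraries. Each population has its own mouse line and its own sort, so that cell type, line and sort cannot be told apart.

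Classical cadherins bind a cadherin on the neighbouring cell through their outermost domain and are tied to actin through p120, beta- and alpha-catenin. They fall into a type I group, to which E- and N-cadherin belong, and a type II group, to which VE-cadherin and cadherin 11 belong. Cadherin 13 lacks the cytoplasmic tail and is held in the membrane by a lipid anchor. Clustered protocadherins are encoded in neighbouring alpha, beta and gamma arrays, where each alpha and gamma gene joins its own variable first exon to exons shared by its array, and each beta gene is a single coding exon with its own promoter. Which of these promoters is used in a cell depends on CTCF and cohesin, best known from neurons. The delta protocadherins lie outside the arrays.

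The values are normalized read counts per gene. Differences are on the scale of log2 of the value plus 1, which understates changes of low genes, and were tested with limma in 1 fit of all 9 libraries. Benjamini-Hochberg adjustment covered the 15647 genes that entered the fit, and higher or lower is called where the adjusted p fell under 0.05. Library values are given in the order of replicates 1, 2 and 3. In bulk RNA, fewer cells of a type and less RNA per cell cannot be told apart.

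Promoter windows from RefSeq (build GRCm38.p6) matched 19 of the 78 genes. Printed here are those of the genes that were called in 1 direction in SmMCll against both other groups, with a mean of at least 100 in a group: Pcdh18 and Pcdh19, which were higher there, and Cdh6 and Pcdh7, which were lower. Each is the 250 bases before the annotated start, 5′ to 3′ on the strand of the gene. Capitals mark an E-box (CANNTG) or a GC box (GGGCGG, or CCGCCC on the other strand).
Pcdh18: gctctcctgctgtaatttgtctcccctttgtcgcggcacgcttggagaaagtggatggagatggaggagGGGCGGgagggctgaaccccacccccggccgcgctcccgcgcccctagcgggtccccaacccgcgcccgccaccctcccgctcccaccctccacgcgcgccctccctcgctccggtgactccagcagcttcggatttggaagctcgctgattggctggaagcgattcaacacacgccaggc
Pcdh19: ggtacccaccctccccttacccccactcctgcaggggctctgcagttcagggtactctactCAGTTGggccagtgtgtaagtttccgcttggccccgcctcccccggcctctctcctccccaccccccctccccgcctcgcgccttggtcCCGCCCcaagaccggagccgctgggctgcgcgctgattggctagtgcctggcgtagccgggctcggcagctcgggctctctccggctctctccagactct
Cdh6: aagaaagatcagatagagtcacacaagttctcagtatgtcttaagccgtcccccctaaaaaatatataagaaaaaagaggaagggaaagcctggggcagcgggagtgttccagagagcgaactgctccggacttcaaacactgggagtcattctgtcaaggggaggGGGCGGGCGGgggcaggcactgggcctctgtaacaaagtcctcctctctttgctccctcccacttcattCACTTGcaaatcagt
Pcdh7: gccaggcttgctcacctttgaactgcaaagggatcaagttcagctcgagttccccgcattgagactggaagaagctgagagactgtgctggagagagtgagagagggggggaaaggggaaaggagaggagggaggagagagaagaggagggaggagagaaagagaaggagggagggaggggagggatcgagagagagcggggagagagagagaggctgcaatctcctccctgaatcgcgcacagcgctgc

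These windows are chr3:49757317-49757566 on the minus strand (Pcdh18), chrX:133688994-133689243 on the minus strand (Pcdh19), chr15:13173676-13173925 on the minus strand (Cdh6) and chr5:57717831-57718080 on the plus strand (Pcdh7). Cdh6 held 1 E-box and 2 overlapping GC boxes, Pcdh19 held 1 of each, Pcdh18 held 1 GC box and Pcdh7 held 0 of both. The cadherin and protocadherin genes outside chromosome 18 gave 20 windows, of which those of Pcdh9 overlapped each other. Of the 20, 9 held an E-box and 9 a GC box. Among the 32851 windows of the same length in the table, 66.2% and 32.7% did. The CArG box, the element of many contractile genes, was in 0 of the 20 and in 1.47% of all windows, with both strands searched. A TATA box (TATAAA, both strands) was in 2 of the 20 and in 12.4% of all. Motif letters in a window are a description and not a binding site.

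Depth, read from the spacing of the normalized values, was 6.39 M to 10.02 M reads per library with the lowest mean in BSMCs (7.62 ± 1.53 M, SD, n = 3, against 9.43 ± 0.55 M in PASMCs and 9.54 ± 0.53 M in SmMCll). The groups were checked against marker lists. Smooth muscle markers were abundant in all of them, with a sum over 10 genes of 40482 to 47735 in BSMCs, 39998 to 46243 in PASMCs and 31916 to 38297 in SmMCll. Chrm2, named in the BSMCs line, was not highest there (155, 223 and 115, against 398, 385 and 199 in PASMCs and 240, 324 and 351 in SmMCll). Cspg4, named in the PASMCs line, was at 1296, 1469 and 1778 in BSMCs, 1958, 1658 and 2393 in PASMCs and 585, 750 and 331 in SmMCll. Limma did not call Cspg4 between PASMCs and BSMCs (log2 difference 0.40, adjusted p = 0.268). It was lower in SmMCll than in PASMCs (-1.91, SE 0.26, adjusted p = 0.000441) and than in BSMCs (-1.51, SE 0.26, adjusted p = 0.000893). All 10 leukocyte markers were lower in PASMCs and in SmMCll than in BSMCs, where 8.88% and 18.2% of all genes were. The 10 summed to 7949 to 11404 in BSMCs, 874 to 1067 in PASMCs and 3159 to 3811 in SmMCll. All 8 mesothelial markers were higher in SmMCll than in PASMCs, where 9.39% of all genes were. The 8 summed to 5890 to 7053 in SmMCll against 130 to 237 in PASMCs and 452 to 1150 in BSMCs. BSMCs replicate 2 differed more from BSMCs replicates 1 and 3 (chi-square per gene 26.2 and 32.9) than those did from each other (15.8). Counts are therefore also given without BSMCs replicate 2 or without BSMCs replicates 1 and 3.

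Most of the differences set the BSMCs apart from the other groups. In PASMCs against BSMCs, 27 of the 68 genes tested were higher and 1 was lower, where 13.2% of all genes tested were higher and 8.88% lower (22.1% called). SmMCll against BSMCs gave 40 higher and 6 lower, where 23.7% and 18.2% of all genes were (41.9% called). In SmMCll against PASMCs 8 were higher and 8 lower, where 9.39% and 6.83% of all genes were (16.2% called). The comparisons share groups and are not independent of each other. In all, 49 of the 68 were called at least once.

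Without BSMCs replicate 2 the count of 28 in PASMCs against BSMCs rose to 40, while the share of all genes called rose from 22.1% to 42.8%. Without PASMCs replicate 1 or 2 the count was 16 (11% and 12.8% of all genes), and without BSMCs replicates 1 and 3 it was 17 (11.2%). The SmMCll against PASMCs count fell from 16 to 8 without SmMCll replicate 2 (10.7% of all genes). SmMCll against BSMCs gave 30 without SmMCll replicate 3, in place of 46 (27.9% of all genes). The counts over all genes moved the same way in each of these. No called direction turned in any of the 20 alternatives.

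The genes that stood apart in 1 group had a pattern by class. BSMCs were lower than both other groups in 25 genes, of which 19 were clustered protocadherins and the other 6 were Cdh1, Cdh4, Cdh11, Cdh22, Pcdh9 and Pcdh20 (10.3% of all genes tested were lower in this way). No gene of the 68 was higher in BSMCs than in both other groups, where 6.19% of all genes were. PASMCs were higher than both in Cdh4 and Cdh15 (1.3% of all genes) and lower than both in Cdh5 (2.08%). SmMCll were higher than both in 7 genes, Cdh9, Cdh11, Cdh17, Pcdh12, Pcdh18, Pcdh19 and Pcdh20 (6.75% of all genes), and lower than both in 6, Cdh3, Cdh6, Cdh13, Cdh16, Cdh18 and Pcdh7 (4.81%). Cdh9, Cdh17 and Pcdh20 passed the filter only through their SmMCll libraries and were tested only because SmMCll was high. Their place here, and in the counts of genes higher in SmMCll, follows in part from the filter.

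On a scale per kilobase of exon, which allows a comparison of levels between genes, Cdh13 led in BSMCs (434 ± 17.6 normalized reads per kb, SD, n = 3), followed by Pcdh7 (206 ± 31.5) and Cdh4 (120.4 ± 21.3). Cdh13 also led in PASMCs (398 ± 15.5), followed by Cdh4 (330.5 ± 39.8) and Pcdh7 (232 ± 33.4). The order differed in SmMCll, where the highest levels per kb were those of Cdh11 (344 ± 43.8) and Pcdh18 (340.5 ± 31.7), which lay within each other's SD, followed by Cdh13 (283 ± 30.4). The clustered genes began at rank 10 in BSMCs with Pcdhb17 (49.5 ± 17.4) and at rank 8 in PASMCs with Pcdhgc3 (93.3 ± 5.18). In SmMCll they began at rank 4 with Pcdhb9 (189 ± 35). The exon length of each alpha and gamma gene includes the exons shared by its array. How reads there were assigned was not given, so the levels and ranks per kb of clustered genes are uncertain.

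**Figure D1:**
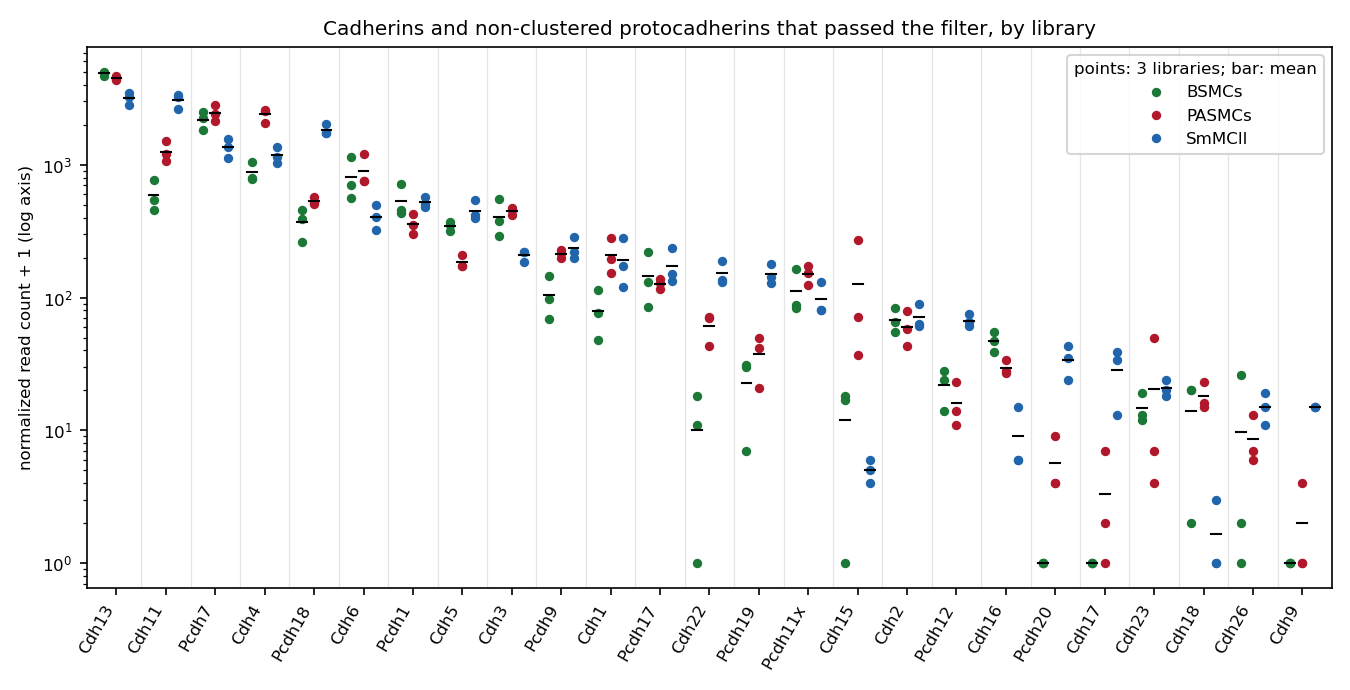
Normalized read count plus 1 (log axis) of the cadherins and non-clustered protocadherins that passed the filter, ordered by their highest group mean. Each point is 1 library and each short bar the mean of the 3 libraries of a group. Cdh13 lies highest, between 2818 and 5032, and the SmMCll points of Cdh11 and Pcdh18 lie above those of the other groups.

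Of the 5 type I classical cadherins, all tested, 3 were higher and 0 lower in PASMCs than in BSMCs, and 0 were higher and 3 lower in SmMCll than in PASMCs. SmMCll against BSMCs gave 2 higher and 1 lower. Of all genes, 22.1%, 16.2% and 41.9% were called in the same order, against 60% of these 5 cadherins in each comparison. Cdh4, which encodes R-cadherin (ENSMUSG00000000305, mm39 chromosome 2, 179084224 to 179541166), had the highest level per kb of them and was at 780, 1052 and 789 in BSMCs, 2576, 2555 and 2065 in PASMCs and 1369, 1033 and 1153 in SmMCll. The PASMCs libraries lay above all others, and the BSMCs and SmMCll libraries overlapped only in BSMCs replicate 2. Cdh4 was 2.76-fold higher in PASMCs than in BSMCs (log2 difference 1.46, SE 0.16, adjusted p = 7.96e-05) and lower in SmMCll than in PASMCs (-1.02, SE 0.16, adjusted p = 0.00108). Its call in SmMCll against BSMCs (0.44, SE 0.16, adjusted p = 0.0434) was lost in 11 of 20 alternatives, among them those without BSMCs replicate 1 or 3, PASMCs replicate 1 or 2, SmMCll replicate 1 or 3 or BSMCs replicates 1 and 3 together (adjusted p 0.0596 to 0.561).

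Cdh3, the gene of P-cadherin (ENSMUSG00000061048, mm39 chromosome 8, 107237523 to 107283929), was at 291, 552 and 374 in BSMCs, 472, 453 and 414 in PASMCs and 219, 185 and 220 in SmMCll. The SmMCll libraries lay below every other library, while those of PASMCs lay within the BSMCs range. Cdh3 was lower in SmMCll than in PASMCs (-1.10, SE 0.22, adjusted p = 0.00476) and than in BSMCs (-0.91, SE 0.22, adjusted p = 0.0067), and the second call was lost on unscaled values (adjusted p = 0.0847). Cdh1, which encodes the epithelial E-cadherin, was at 47, 75 and 113 in BSMCs, 279, 194 and 153 in PASMCs and 119, 280 and 172 in SmMCll. No PASMCs or SmMCll library was as low as the highest BSMCs library. The log2 difference of Cdh1 was 1.45, SE 0.38, adjusted p = 0.0204 in PASMCs and 1.27, SE 0.38, adjusted p = 0.0203 in SmMCll, each against BSMCs. The first call was lost with limma without the trend and robust options and without BSMCs replicate 1, PASMCs replicate 1 or 2 or BSMCs replicates 1 and 3 together (adjusted p 0.0512 to 0.0934), and the second without BSMCs replicate 1, SmMCll replicate 2 or 3 or BSMCs replicates 1 and 3 together (adjusted p 0.0505 to 0.0938). Among 17 other epithelial markers, 7 were higher and 4 lower in PASMCs than in BSMCs (13.2% and 8.88% of all genes). In SmMCll, 5 of these markers were higher and 4 lower than in BSMCs (23.7% and 18.2% of all genes). Their sum was 6487 to 7927 in BSMCs, 7323 to 8594 in PASMCs and 5947 to 7301 in SmMCll, with 1 of the 17, Cldn4, at 0 in all BSMCs libraries. Its part in the Cdh1 result was not tested.

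Cdh15, which encodes the M-cadherin of skeletal muscle, was at 16, 17 and 0 in BSMCs, 36, 71 and 269 in PASMCs and 3, 4 and 5 in SmMCll, so that PASMCs replicate 3 alone held most of the reads. Cdh15 was called higher in PASMCs than in BSMCs (3.73, SE 1.04, adjusted p = 0.0263) and lower in SmMCll than in PASMCs (-4.18, SE 1.04, adjusted p = 0.0168). The first call was lost with limma without the trend and robust options, in a fit of the pair of groups alone and without PASMCs replicate 2 or 3 or BSMCs replicates 1 and 3 together (adjusted p 0.0633 to 0.124), and the second without PASMCs replicate 3 or SmMCll replicate 1 or 2 (adjusted p 0.0595 to 0.0805). Cdh2, the gene of N-cadherin, was at 64, 82 and 54 in BSMCs, 57, 78 and 42 in PASMCs and 60, 88 and 62 in SmMCll, and it was not called in any comparison. Its log2 difference in SmMCll against BSMCs was 0.07 (SE 0.32).

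Type II classical cadherins numbered 10 in the table, of which 6 passed the filter. PASMCs against BSMCs gave 2 higher and 1 lower. SmMCll against PASMCs gave 3 higher and 2 lower, as did SmMCll against BSMCs. In this order 50%, 83.3% and 83.3% of the 6 were called, against 22.1%, 16.2% and 41.9% of all genes. Cdh11, the cadherin of mesenchymal cells (ENSMUSG00000031673, mm39 chromosome 8, 103358727 to 103512274), was at 542, 767 and 457 in BSMCs, 1498, 1195 and 1073 in PASMCs and 2620, 3336 and 3246 in SmMCll. Its groups did not overlap in any comparison, and their order was BSMCs, PASMCs, SmMCll from low to high. The log2 difference was 1.11, SE 0.20, adjusted p = 0.00214 in PASMCs against BSMCs, 1.29, SE 0.20, adjusted p = 0.000853 in SmMCll against PASMCs, and 2.40, SE 0.20, adjusted p = 5.26e-06 in SmMCll against BSMCs. These 3 calls held under all 20 alternatives. The sum of 10 fibroblast markers moved in the same order (32425 to 39351, 39911 to 44333 and 59089 to 67746), with 5 higher and 0 lower in each comparison and 0 of them at 0. Of all genes, 13.2% were higher in PASMCs against BSMCs, 9.39% in SmMCll against PASMCs and 23.7% in SmMCll against BSMCs. The part of the fibroblast markers in the Cdh11 result was not tested.

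Cdh5 encodes VE-cadherin, the cadherin of endothelial junctions (ENSMUSG00000031871, mm39 chromosome 8, 104828257 to 104871143), and was at 350, 318 and 371 in BSMCs, 171, 209 and 173 in PASMCs and 420, 538 and 396 in SmMCll. It was the only gene of the 68 called lower in PASMCs than in BSMCs (log2 difference -0.91, SE 0.18, adjusted p = 0.00417), and it was higher in SmMCll than in PASMCs (1.28, SE 0.18, adjusted p = 0.000525). The first of these was lost on unscaled values (adjusted p = 0.0612). SmMCll and BSMCs were not called different (0.37, SE 0.18, adjusted p = 0.112), although their libraries did not overlap. Of 12 other endothelial markers, 0 were higher and 3 lower in PASMCs than in BSMCs (13.2% and 8.88% of all genes). In SmMCll, 7 were higher and 0 lower than in PASMCs (9.39% and 6.83% of all genes). Against BSMCs, SmMCll had 4 of these markers higher and 1 lower (23.7% and 18.2% of all genes). Their sum was 10921 to 12026 in BSMCs, 9156 to 10880 in PASMCs and 15084 to 17864 in SmMCll, and none of the 12 was at 0 in any group. The part of these markers in the Cdh5 result was not tested.

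Cdh6, which encodes K-cadherin (ENSMUSG00000039385, mm39 chromosome 15, 13028787 to 13173761), was at 701, 1147 and 564 in BSMCs, 1197, 755 and 758 in PASMCs and 323, 401 and 494 in SmMCll. All SmMCll libraries were below those of the other groups, which overlapped each other. Cdh6 was lower in SmMCll than in PASMCs (-1.14, SE 0.27, adjusted p = 0.0134) and than in BSMCs (-0.94, SE 0.27, adjusted p = 0.017). The first call was lost on unscaled values and without PASMCs replicate 1 or SmMCll replicate 1 or 2 (adjusted p 0.0507 to 0.0661), and the second on unscaled values and without SmMCll replicate 1 (adjusted p 0.0689 to 0.127).

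Cdh22 was at 10, 17 and 0 in BSMCs, 42, 69 and 70 in PASMCs and 135, 189 and 131 in SmMCll, and its groups rose in the same order as those of Cdh11 without overlap. It was called higher in PASMCs than in BSMCs (3.36, SE 0.83, adjusted p = 0.0153), a call lost in a fit of the pair of groups alone and without PASMCs replicate 2 (adjusted p 0.0542 to 0.0546), and higher in SmMCll than in BSMCs (4.69, SE 0.83, adjusted p = 0.00111). Cdh9 was listed at 0 in all BSMCs libraries, at 0, 0 and 3 in PASMCs and at 14 in each SmMCll library. Its call in SmMCll against PASMCs (3.24, SE 0.77, adjusted p = 0.0134) was lost without PASMCs replicate 1 or 2 or any 1 SmMCll library (adjusted p 0.0584 to 0.0671), and against BSMCs it was called higher (adjusted p = 0.00221). Cdh18 went the other way at low values, 19, 19 and 1 in BSMCs, 15, 22 and 14 in PASMCs and 2, 0 and 0 in SmMCll. It was called lower in SmMCll than in PASMCs (-3.62, SE 0.90, adjusted p = 0.0173) and than in BSMCs (-2.69, SE 0.90, adjusted p = 0.033). The first call was lost without PASMCs replicate 1 or 2 or SmMCll replicate 2 or 3 (adjusted p 0.0517 to 0.0717), and the second on unscaled values, in a fit of the pair of groups alone and without BSMCs replicate 1 or 2 or SmMCll replicate 2 or 3 (adjusted p 0.0627 to 0.111). The other 4 type II genes (Cdh8, Cdh12, Cdh19 and Cdh24) did not pass the filter, and Cdh8 was listed at 0 in every BSMCs and PASMCs library.

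Among the 5 atypical numbered cadherins, 0 were called between PASMCs and BSMCs. In SmMCll 1 was higher and 2 were lower than in each of the other groups. Of all genes, 22.1% were called between PASMCs and BSMCs, 16.2% in SmMCll against PASMCs and 41.9% in SmMCll against BSMCs. Cdh13 encodes T-cadherin, an adiponectin receptor of vascular cells (ENSMUSG00000031841, mm39 chromosome 8, 119010472 to 120051660), and was at 5032, 4652 and 4936 in BSMCs, 4666, 4326 and 4431 in PASMCs and 3212, 2818 and 3497 in SmMCll. The SmMCll libraries lay below all others. Cdh13 was 1.41-fold lower in SmMCll than in PASMCs (log2 difference -0.50, SE 0.10, adjusted p = 0.00525) and 1.54-fold lower than in BSMCs (-0.62, SE 0.10, adjusted p = 0.000632), under all 20 alternatives. The smooth muscle markers moved with it: 3 of 10 were lower and 0 higher in SmMCll than in PASMCs (6.83% of all genes were lower). Against BSMCs, 7 were lower and 0 higher in SmMCll (18.2% of all genes were lower). The part of the smooth muscle markers in the result was not tested.

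Cdh16, the cadherin of kidney epithelium, was at 54, 46 and 38 in BSMCs, 27, 26 and 33 in PASMCs and 5, 5 and 14 in SmMCll, again with the lowest values in SmMCll. It was lower there than in PASMCs (-1.86, SE 0.45, adjusted p = 0.015) and than in BSMCs (-2.52, SE 0.45, adjusted p = 0.00121). The first call was lost without PASMCs replicate 3 or SmMCll replicate 1 or 2 (adjusted p 0.0584 to 0.0646). Cdh17, the cadherin of liver and intestine, was listed at 0 in all BSMCs libraries, at 6, 0 and 1 in PASMCs and at 12, 38 and 33 in SmMCll. It was called higher in SmMCll than in PASMCs (3.42, SE 0.83, adjusted p = 0.0145), and this was lost without PASMCs replicate 2 or 3 or SmMCll replicate 2 or 3 (adjusted p 0.0521 to 0.0833). Against BSMCs the adjusted p of Cdh17 was 0.00107. Cdh23 and Cdh26 ranged from 0 to 49 and were not called in any comparison.

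**Figure D2:**
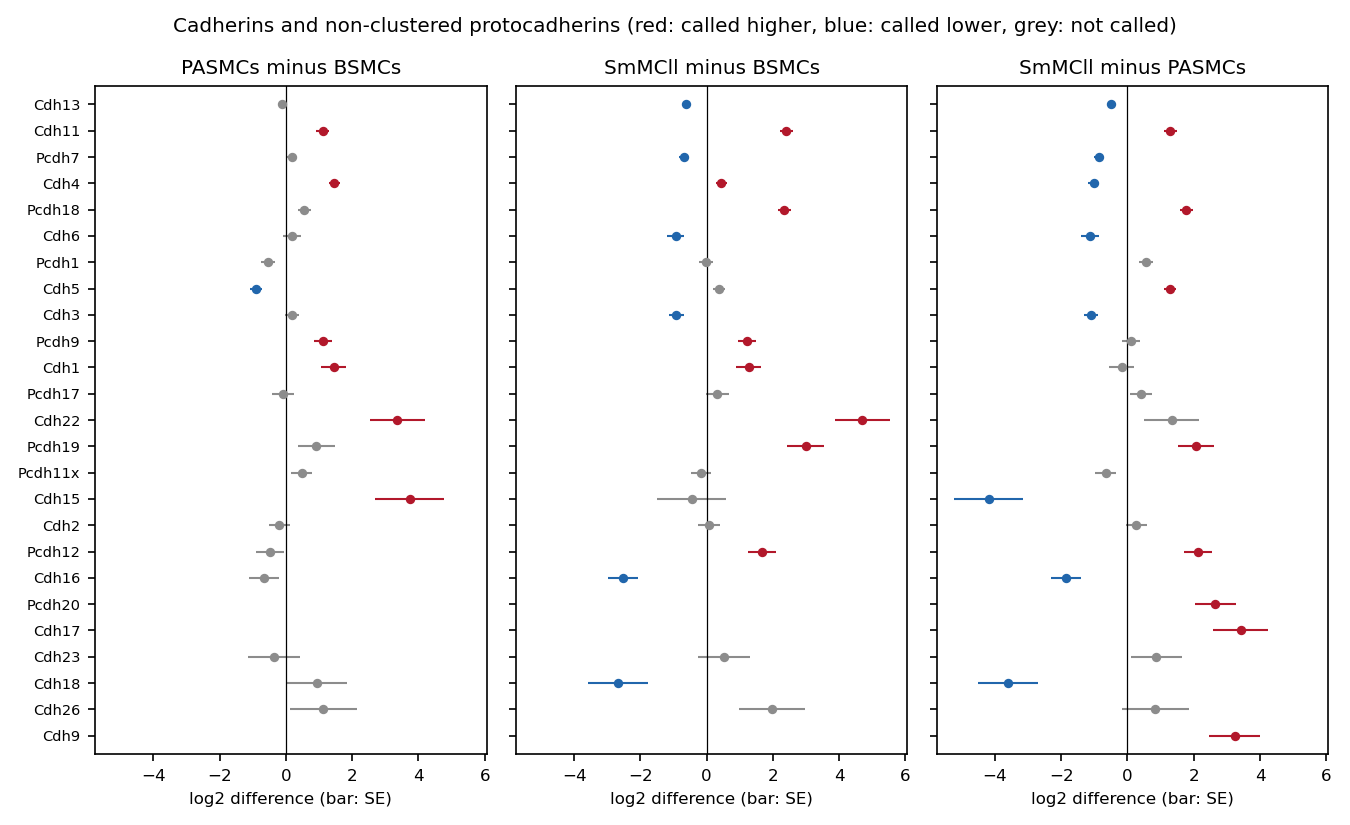
Log2 difference of each cadherin and non-clustered protocadherin that passed the filter, in 3 panels (PASMCs minus BSMCs, SmMCll minus BSMCs, SmMCll minus PASMCs), with bars of 1 SE from limma. Red marks genes called higher, blue genes called lower, and grey genes not called. Comparisons against a group listed at 0 in every library are left out, and Cdh4 is red in the PASMCs minus BSMCs panel at 1.46 and blue in the SmMCll minus PASMCs panel at -1.02.

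The 12 protocadherins outside the arrays gave 9 tested genes. Of these, 2 were higher and 0 lower in PASMCs than in BSMCs, and 4 higher and 1 lower in SmMCll than in PASMCs. SmMCll against BSMCs gave 5 higher and 1 lower. In this order 22.2%, 55.6% and 66.7% of the 9 were called, against 22.1%, 16.2% and 41.9% of all genes. The first share was near that of all genes. Among the delta-1 genes, Pcdh7 (ENSMUSG00000029108, mm39 chromosome 5, 57875309 to 58290572) had the highest level per kb and was at 2247, 2476 and 1818 in BSMCs, 2835, 2136 and 2392 in PASMCs and 1133, 1368 and 1563 in SmMCll. Every SmMCll library lay below every library of the other groups, which overlapped. Pcdh7 was lower in SmMCll than in PASMCs (log2 difference -0.86, SE 0.16, adjusted p = 0.00327) and than in BSMCs (-0.69, SE 0.16, adjusted p = 0.00594), and the second call was lost on unscaled values (adjusted p = 0.111).

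Pcdh9 was at 68, 145 and 96 in BSMCs, 228, 215 and 196 in PASMCs and 220, 285 and 197 in SmMCll, with the BSMCs libraries below all others. It was higher in PASMCs (1.11, SE 0.27, adjusted p = 0.0145) and in SmMCll (1.23, SE 0.27, adjusted p = 0.00423) than in BSMCs. The first call was lost without PASMCs replicate 1 or BSMCs replicates 1 and 3 together (adjusted p 0.0603 to 0.24), and the second without BSMCs replicates 1 and 3 together (adjusted p = 0.0761). Pcdh1, known from airway epithelium, was at 431, 455 and 719 in BSMCs, 299, 426 and 349 in PASMCs and 570, 508 and 481 in SmMCll and was not called in any comparison (lowest adjusted p = 0.0782, in PASMCs against BSMCs, where the groups did not overlap). Pcdh11x, at 82, 164 and 87 in BSMCs, 152, 171 and 123 in PASMCs and 129, 79 and 80 in SmMCll, was not called either.

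Among the delta-2 genes, Pcdh18 (ENSMUSG00000037892, mm39 chromosome 3, 49697745 to 49711774) was at 260, 455 and 390 in BSMCs, 503, 566 and 520 in PASMCs and 1720, 1738 and 2023 in SmMCll. Its SmMCll libraries lay above all others. Pcdh18 was 3.44-fold higher in SmMCll than in PASMCs (log2 difference 1.78, SE 0.19, adjusted p = 9.87e-05) and 5.07-fold higher than in BSMCs (2.34, SE 0.19, adjusted p = 5.21e-06), under all 20 alternatives. PASMCs were not called above BSMCs (0.56, SE 0.19, adjusted p = 0.0558), although their libraries did not overlap. The fibroblast marker sums given with Cdh11 and the mesothelial sums were also highest in SmMCll, and their part was not tested.

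Pcdh19, which can pair with N-cadherin in neural tissue (ENSMUSG00000051323, mm39 chromosome X, 132483609 to 132589736), was at 29, 30 and 6 in BSMCs, 20, 41 and 49 in PASMCs and 128, 142 and 177 in SmMCll, with SmMCll above the other groups and those overlapping. It was higher in SmMCll than in BSMCs (2.99, SE 0.55, adjusted p = 0.00147) and than in PASMCs (2.07, SE 0.55, adjusted p = 0.0242). The call against PASMCs was lost on unscaled values, with limma without the trend and robust options and without PASMCs replicate 1 or 2 or any 1 SmMCll library (adjusted p 0.0517 to 0.0972). Pcdh17 was at 129, 84 and 219 in BSMCs, 115, 127 and 136 in PASMCs and 133, 236 and 150 in SmMCll, in overlapping groups with no call. Pcdh8 and Pcdh10 did not pass the filter, and Pcdh8 was listed at 0 in all BSMCs libraries.

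Pcdh12, a protocadherin of endothelium, was at 13, 23 and 27 in BSMCs, 13, 10 and 22 in PASMCs and 64, 74 and 60 in SmMCll. It was higher in SmMCll than in PASMCs (2.13, SE 0.42, adjusted p = 0.00452) and than in BSMCs (1.66, SE 0.42, adjusted p = 0.00895), under all 20 alternatives, and was not called between PASMCs and BSMCs (log2 difference -0.47). The endothelial marker sums given with Cdh5 were also highest in SmMCll, and their part was not tested. Pcdh20 was listed at 0 in every BSMCs library, at 3, 8 and 3 in PASMCs and at 23, 42 and 34 in SmMCll. It was called in all comparisons, and in SmMCll against PASMCs the log2 difference was 2.66, SE 0.61, adjusted p = 0.0112, lost without PASMCs replicate 1 or SmMCll replicate 2 or 3 (adjusted p 0.0509 to 0.0692). The call of PASMCs over BSMCs (adjusted p = 0.0179) was lost with a pseudocount of 10, in a fit of the pair of groups alone and without PASMCs replicate 2 or BSMCs replicates 1 and 3 together (adjusted p 0.0622 to 0.167). Pcdh15 did not pass the filter.

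The clustered protocadherins, 46 genes on chromosome 18 of which 43 passed the filter, had their lowest sums in the BSMCs libraries. In PASMCs 20 of the 43 were higher than in BSMCs and 0 lower, with a median log2 difference of 1.33, where 13.2% of all genes were higher and the median of all genes was 0.05. In SmMCll 29 were higher than in BSMCs and 0 lower, with a median of 1.61 (23.7% of all genes, median 0.05). Of these, 19 were higher in both. The libraries of 27 genes did not overlap and were higher in PASMCs than in BSMCs (62.8% of 43, against 17.6% of all genes tested), and 0 were lower without overlap. In SmMCll against BSMCs this count was 30 (69.8%, against 26.6% of all genes), and 0 were lower without overlap (23.9% of all genes).

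Between SmMCll and PASMCs limma called 0 of the 43, with a lowest adjusted p of 0.112, and limma was the only tool run. At an unadjusted p under 0.05 there were 5 higher and 0 lower in SmMCll, where 27.9% of all genes tested lay under it in either direction. The median was 0.13, with 25 positive and 18 negative differences, and 14 genes were above and 1 below without overlap (22.6% and 18.0% of all genes). A missing call does not show equal levels. With array weights 7 were called higher, in a fit of these groups alone 8, and without BSMCs replicates 1 and 3 also 7, where the share of all genes called in either direction rose from 16.2% to 32.5%, 27.8% and 27.9%.

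The count of 20 in PASMCs over BSMCs was 29 without BSMCs replicate 2, 10 without PASMCs replicate 1, 12 without PASMCs replicate 2, 13 without BSMCs replicates 1 and 3, and 8 in a fit of these groups alone. All genes called in either direction moved from 22.1% to 42.8%, 11%, 12.8%, 11.2% and 12.3% in the same order. In SmMCll over BSMCs the count of 29 was 18 without SmMCll replicate 1, 16 without SmMCll replicate 3, and 16 without BSMCs replicates 1 and 3, where all genes called moved from 41.9% to 32.4%, 27.9% and 25%. BSMCs replicates 1 and 3 were also the least deep libraries (7.14 M and 6.39 M reads). BSMCs replicate 2 was at 9.33 M, PASMCs replicate 3 at 8.92 M and SmMCll replicate 3 at 8.93 M. The BSMCs libraries listed 6, 3 and 8 of the 46 genes at 0, against 2, 0 and 1 in PASMCs and 1 in each SmMCll library. Over all tested genes the share at 0 was 2.87%, 1.21% and 3.57% in BSMCs, 2.83%, 3.22% and 2.57% in PASMCs and 1.09%, 0.607% and 1.05% in SmMCll. Leukocyte marker sums were highest and fibroblast marker sums lowest in BSMCs, as given above. The part of depth and of these markers in the result was not tested. The table gave each gamma gene nearly the same 3′ end, since they share their last exons, and how reads in shared exons or near-identical beta genes were assigned was not given in the sources used here. Values of single alpha, beta and gamma genes are uncertain for that reason, and sums over an array are given first.

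Summed over the 46 genes, the normalized count was 1518, 2737 and 1868 in BSMCs, 4620, 4198 and 4205 in PASMCs, and 5511, 5329 and 5625 in SmMCll. The 3 groups did not overlap, and BSMCs replicate 2 had the highest sum of its group. Before the library scaling the sums were 1358, 3062 and 1460 in BSMCs, 4850, 4867 and 4380 in PASMCs, and 5997, 5912 and 5336 in SmMCll, still without overlap. The beta array gave 1038, 1616 and 1045 in BSMCs, 2324, 2120 and 1896 in PASMCs, and 3046, 2979 and 3042 in SmMCll, so that SmMCll was above PASMCs as well. The gamma array gave 465, 1064 and 790 in BSMCs, 2224, 1994 and 2243 in PASMCs, and 2367, 2267 and 2474 in SmMCll. The SmMCll libraries lay just above those of PASMCs, and both above every BSMCs library. The alpha array gave 15, 57 and 33 in BSMCs, 72, 84 and 66 in PASMCs, and 98, 83 and 109 in SmMCll.

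Within the gamma array the A genes summed to 266 ± 105 in BSMCs (SD, n = 3), 767 ± 26.1 in PASMCs and 840.0 ± 79.4 in SmMCll. The B genes gave 241 ± 125, 758 ± 102 and 763 ± 52.6 in the same order. The 3 C genes, which differ from the others in sequence and use, gave 267 ± 73.3, 628 ± 17.6 and 766 ± 19.3. The subgroups were thus alike in having their lowest sums in BSMCs.

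**Figure D3:**
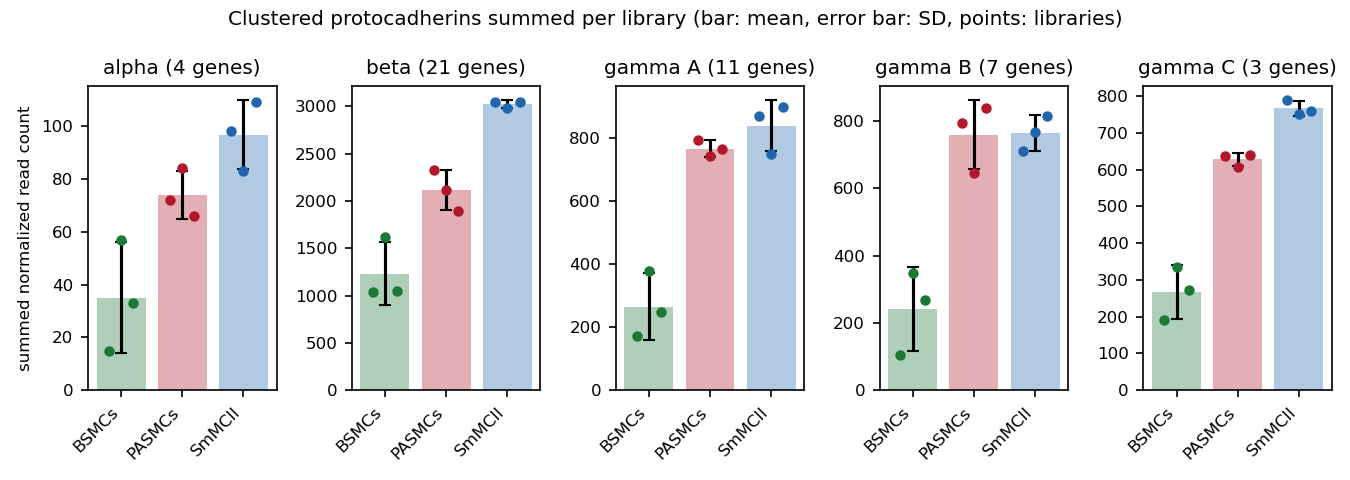
Normalized read counts summed over the alpha, beta, gamma A, gamma B and gamma C protocadherins in each library. Bars are means of 3 libraries, error bars SD and points libraries. BSMCs have the lowest bar in each panel, and in the beta panel their libraries lie between 1038 and 1616 against 2979 to 3046 in SmMCll.

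All 21 beta genes were tested. Against BSMCs, 9 were higher in PASMCs and 13 in SmMCll, with medians of 0.83 and 1.21 and 0 lower. Of all genes, 13.2% and 23.7% were higher in these comparisons. Pcdhb9 (ENSMUSG00000051242, mm39 chromosome 18, 37533908 to 37536962) had the highest level per kb of the beta genes in SmMCll and was at 61, 105 and 14 in BSMCs, 333, 172 and 179 in PASMCs and 578, 472 and 686 in SmMCll. The 3 groups did not overlap. Pcdhb9 was higher in SmMCll than in BSMCs (log2 difference 3.63, SE 0.56, adjusted p = 0.000452) and in PASMCs than in BSMCs (2.24, SE 0.56, adjusted p = 0.0162). The second call was lost with limma without the trend and robust options, in a fit of the pair of groups alone and without PASMCs replicate 1 or BSMCs replicates 1 and 3 together (adjusted p 0.0524 to 0.0757). SmMCll was not called above PASMCs (1.39, SE 0.56, adjusted p = 0.125).

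Pcdhb16 was at 17, 93 and 59 in BSMCs, 182, 154 and 113 in PASMCs and 378, 373 and 294 in SmMCll, again without overlap of the groups. Its log2 difference against BSMCs was 1.66, SE 0.48, adjusted p = 0.03 in PASMCs and 2.90, SE 0.48, adjusted p = 0.000716 in SmMCll. The PASMCs call was lost with limma without the trend and robust options, in a fit of the pair of groups alone and without PASMCs replicate 1 or 2, SmMCll replicate 2 or BSMCs replicates 1 and 3 together (adjusted p 0.0508 to 0.209). Pcdhb7 was at 15, 37 and 38 in BSMCs, 98, 119 and 84 in PASMCs and 142, 179 and 143 in SmMCll, in the same order. It was higher than in BSMCs by 1.80, SE 0.35, adjusted p = 0.00421 in PASMCs and 2.43, SE 0.35, adjusted p = 0.000298 in SmMCll, under all 20 alternatives. Pcdhb20 was at 127, 157 and 90 in BSMCs, 274, 316 and 239 in PASMCs and 341, 279 and 286 in SmMCll, where PASMCs and SmMCll overlapped. Both were above BSMCs (1.17, SE 0.23, adjusted p = 0.00404 and 1.30, SE 0.23, adjusted p = 0.00102), likewise under all 20.

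Another 4 beta genes were higher in both comparisons against BSMCs. Pcdhb3 was at 13, 16 and 10 in BSMCs, 64, 41 and 57 in PASMCs and 28, 53 and 58 in SmMCll, and PASMCs were above BSMCs by 1.97, SE 0.40, adjusted p = 0.00487. In SmMCll the difference of Pcdhb3 from BSMCs was 1.71, SE 0.40, adjusted p = 0.00551, lost without BSMCs replicates 1 and 3 together (adjusted p = 0.0522). Pcdhb12 was at 6, 9 and 4 in BSMCs, 38, 17 and 22 in PASMCs and 46, 37 and 27 in SmMCll. Its groups PASMCs and SmMCll overlapped, and BSMCs lay below both. Pcdhb18 was at 4, 14 and 8 in BSMCs, 31, 18 and 32 in PASMCs and 36, 70 and 42 in SmMCll. Pcdhb2 was at 0, 10 and 0 in BSMCs, 14, 20 and 16 in PASMCs and 6, 14 and 18 in SmMCll, with 1 SmMCll library inside the BSMCs range. The PASMCs call of Pcdhb12 was lost in a fit of the pair of groups alone and without PASMCs replicate 1 or BSMCs replicates 1 and 3 together (adjusted p 0.0707 to 0.178). That of Pcdhb18 was lost in 11 of 19 alternatives, among them those without BSMCs replicate 1 or 3, any 1 PASMCs library, any 1 SmMCll library or BSMCs replicates 1 and 3 together (adjusted p 0.0505 to 0.414). That of Pcdhb2 was lost in 11 of 19 alternatives, among them those without BSMCs replicate 1 or 3, any 1 PASMCs library, SmMCll replicate 2 or 3 or BSMCs replicates 1 and 3 together (adjusted p 0.0516 to 0.654), and the SmMCll call of Pcdhb2 was lost in 12 of 19 alternatives, among them those without BSMCs replicate 1 or 3, any 1 PASMCs library, SmMCll replicate 2 or 3 or BSMCs replicates 1 and 3 together (adjusted p 0.0548 to 0.871).

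Pcdhb11 was the 1 beta gene called in PASMCs and not in SmMCll. It was at 69, 105 and 43 in BSMCs, 140, 137 and 133 in PASMCs and 131, 94 and 98 in SmMCll, and PASMCs were above BSMCs (1.00, SE 0.31, adjusted p = 0.0408), a call lost in 12 of 20 alternatives, among them those without BSMCs replicate 1 or 3, any 1 PASMCs library, any 1 SmMCll library or BSMCs replicates 1 and 3 together (adjusted p 0.0556 to 0.537). Another 5 beta genes were called against BSMCs in SmMCll and not in PASMCs, which does not show that the differences are unequal. Pcdhb17 was at 175, 324 and 193 in BSMCs, 262, 285 and 251 in PASMCs and 361, 367 and 358 in SmMCll, the highest beta level per kb in BSMCs. Pcdhb19 was at 74, 83 and 40 in BSMCs, 76, 97 and 104 in PASMCs and 174, 135 and 133 in SmMCll. Pcdhb21 was at 53, 98 and 70 in BSMCs, 102, 119 and 52 in PASMCs and 148, 178 and 125 in SmMCll. In each of these the SmMCll libraries were above the BSMCs libraries. Pcdhb22 was at 40, 88 and 64 in BSMCs, 80, 81 and 88 in PASMCs and 121, 112 and 122 in SmMCll, and Pcdhb8 was at 55, 86 and 74 in BSMCs, 98, 79 and 105 in PASMCs and 129, 117 and 101 in SmMCll. The log2 differences of SmMCll from BSMCs were 0.70, 1.21, 1.05, 0.95 and 0.70 for Pcdhb17, Pcdhb19, Pcdhb21, Pcdhb22 and Pcdhb8. Each of these 5 calls was lost in at least 1 alternative, that of Pcdhb19 without BSMCs replicates 1 and 3 together (adjusted p = 0.0751). The call of Pcdhb17 was lost in 9 of 20 alternatives, among them those without BSMCs replicate 1 or 3, any 1 SmMCll library or BSMCs replicates 1 and 3 together (adjusted p 0.0531 to 0.598), and that of Pcdhb21 on unscaled values and without BSMCs replicate 1 or 3, any 1 SmMCll library or BSMCs replicates 1 and 3 together (adjusted p 0.0506 to 0.341). The call of Pcdhb22 was lost in a fit of the pair of groups alone and without BSMCs replicate 1, any 1 SmMCll library or BSMCs replicates 1 and 3 together (adjusted p 0.0509 to 0.32), and that of Pcdhb8 in 14 of 20 alternatives, among them those without BSMCs replicate 1 or 3, any 1 PASMCs library, any 1 SmMCll library or BSMCs replicates 1 and 3 together (adjusted p 0.0563 to 0.365).

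The remaining 7 beta genes were not called in any comparison. Of these Pcdhb14 had the highest library value, with 163, 223 and 196 in BSMCs, 256, 310 and 294 in PASMCs and 214, 247 and 288 in SmMCll, with PASMCs above BSMCs without overlap and without a call (0.57, SE 0.19, adjusted p = 0.0561). The other 6, Pcdhb4, Pcdhb5, Pcdhb6, Pcdhb10, Pcdhb13 and Pcdhb15, had library values from 3 to 92. Pcdhb4 had the smallest differences against BSMCs, -0.10 in PASMCs and -0.11 in SmMCll. The array was thus not called lower in BSMCs at every gene, and a missing call does not show equal levels.

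Of all genes tested, 13.2% were higher in PASMCs and 23.7% in SmMCll than in BSMCs. Of the 21 gamma genes tested, 11 and 15 were, with medians of 1.87 and 1.69 and 0 lower. Pcdhgc3 (ENSMUSG00000102918, mm39 chromosome 18, 37939417 to 37974926) had the highest level per kb and was at 140, 278 and 243 in BSMCs, 485, 512 and 542 in PASMCs and 720, 659 and 674 in SmMCll. The groups did not overlap. Pcdhgc3 was higher in PASMCs (log2 difference 1.27, SE 0.22, adjusted p = 0.00218) and in SmMCll (1.69, SE 0.22, adjusted p = 0.000164) than in BSMCs, under all 20 alternatives, and SmMCll was not called above PASMCs (0.42, SE 0.22, adjusted p = 0.266).

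Another 4 gamma genes held both calls against BSMCs under all 20 alternatives. Pcdhga5 was at 27, 39 and 43 in BSMCs, 129, 132 and 137 in PASMCs and 132, 124 and 125 in SmMCll, which gave 1.87, SE 0.25, adjusted p = 0.000359 in PASMCs and 1.80, SE 0.25, adjusted p = 0.000216 in SmMCll. Pcdhgb7 was at 23, 41 and 18 in BSMCs, 121, 110 and 108 in PASMCs and 106, 94 and 123 in SmMCll. Its differences were 2.09, SE 0.32, adjusted p = 0.000842 and 2.01, SE 0.32, adjusted p = 0.000525. In both genes PASMCs and SmMCll overlapped and BSMCs lay below. Pcdhga3 was at 0, 13 and 0 in BSMCs, 88, 62 and 66 in PASMCs and 110, 81 and 78 in SmMCll, so that 2 BSMCs libraries were listed at 0. Its differences from BSMCs were 4.90, SE 0.83, adjusted p = 0.00169 and 5.22, SE 0.83, adjusted p = 0.000556. Pcdhgb1 was at 2, 21 and 0 in BSMCs, 86, 63 and 59 in PASMCs and 61, 54 and 45 in SmMCll, with 1 BSMCs library at 0. Those of Pcdhgb1 were 4.10, SE 0.85, adjusted p = 0.00585 and 3.74, SE 0.85, adjusted p = 0.00499. The size of a fitted difference near 0 depends on the pseudocount.

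The other 6 gamma genes called in both lost a call in at least 1 alternative. Pcdhgb6 was at 17, 142 and 75 in BSMCs, 260, 224 and 277 in PASMCs and 302, 297 and 366 in SmMCll, and its PASMCs call (2.13, SE 0.55, adjusted p = 0.0193) was lost with limma without the trend and robust options, in a fit of the pair of groups alone and without PASMCs replicate 1 or 3 (adjusted p 0.0507 to 0.063). Pcdhga11 was at 7, 23 and 0 in BSMCs, 66, 57 and 67 in PASMCs and 76, 87 and 104 in SmMCll, and its PASMCs call (3.48, SE 0.86, adjusted p = 0.0148) was lost in a fit of the pair of groups alone and without PASMCs replicate 1 (adjusted p = 0.0522). In SmMCll their calls against BSMCs (2.47 and 3.95) held under all 20. Pcdhga4 was at 9, 30 and 35 in BSMCs, 66, 83 and 79 in PASMCs and 77, 51 and 77 in SmMCll, with a PASMCs difference of 1.78 that was lost in a fit of the pair of groups alone and without PASMCs replicate 2 (adjusted p 0.055 to 0.0637) and an SmMCll difference of 1.61 lost without SmMCll replicate 1 or 3 (adjusted p 0.0549 to 0.0607). Pcdhga8 was at 12, 31 and 13 in BSMCs, 50, 56 and 59 in PASMCs and 63, 36 and 53 in SmMCll, with a PASMCs difference of 1.64 lost in a fit of the pair of groups alone and without BSMCs replicate 1, PASMCs replicate 2 or BSMCs replicates 1 and 3 together (adjusted p 0.0507 to 0.301) and an SmMCll difference of 1.49 lost without SmMCll replicate 1 or 3 or BSMCs replicates 1 and 3 together (adjusted p 0.0539 to 0.286). The lowest PASMCs and SmMCll libraries of both genes were above the highest BSMCs library.

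Pcdhgb5 was at 8, 27 and 58 in BSMCs, 74, 85 and 122 in PASMCs and 58, 74 and 72 in SmMCll, with BSMCs replicate 3 level with an SmMCll library. Its PASMCs difference of 1.91 was lost with limma without the trend and robust options, in a fit of the pair of groups alone and without BSMCs replicate 1 or any 1 PASMCs library (adjusted p 0.0622 to 0.0822), and its SmMCll difference of 1.48 was lost in 12 of 20 alternatives, among them those without BSMCs replicate 1 or 2, any 1 PASMCs library or any 1 SmMCll library (adjusted p 0.0512 to 0.14). Pcdhgc5 was at 25, 29 and 3 in BSMCs, 133, 73 and 57 in PASMCs and 54, 65 and 55 in SmMCll, without overlap with BSMCs. Its PASMCs difference of 2.51 was lost with limma without the trend and robust options, in a fit of the pair of groups alone and without PASMCs replicate 1 or 2 or BSMCs replicates 1 and 3 together (adjusted p 0.0514 to 0.0896), and its SmMCll difference of 2.01 was lost on unscaled values, with limma without the trend and robust options, in a fit of the pair of groups alone and without any 1 SmMCll library or BSMCs replicates 1 and 3 together (adjusted p 0.0511 to 0.141).

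Another 4 gamma genes were called against BSMCs in SmMCll and not in PASMCs. Pcdhga1 was at 1, 22 and 6 in BSMCs, 25, 8 and 21 in PASMCs and 64, 50 and 56 in SmMCll. Pcdhga6 was at 10, 73 and 50 in BSMCs, 78, 129 and 106 in PASMCs and 103, 111 and 111 in SmMCll. All SmMCll libraries of both genes were above the BSMCs libraries. Pcdhga7 was at 73, 65 and 17 in BSMCs, 107, 112 and 102 in PASMCs and 151, 95 and 117 in SmMCll, and Pcdhgb2 was at 1, 49 and 65 in BSMCs, 142, 97 and 141 in PASMCs and 112, 140 and 135 in SmMCll. The SmMCll differences from BSMCs were 3.07 for Pcdhga1, 1.66 for Pcdhga6, 1.43 for Pcdhga7 and 2.79 for Pcdhgb2. The first was lost without BSMCs replicates 1 and 3 together (adjusted p = 0.126), and the second in 8 of 20 alternatives, among them those without BSMCs replicate 1, any 1 SmMCll library or BSMCs replicates 1 and 3 together (adjusted p 0.0509 to 0.245). That of Pcdhga7 was lost on unscaled values, with limma without the trend and robust options, in a fit of the pair of groups alone and without SmMCll replicate 1 or 3 or BSMCs replicates 1 and 3 together (adjusted p 0.0511 to 0.0943), and that of Pcdhgb2 in 9 of 20 alternatives, among them those without any 1 PASMCs library or any 1 SmMCll library (adjusted p 0.053 to 0.105).

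The 6 gamma genes without a call were Pcdhga2, Pcdhga9, Pcdhga12, Pcdhgb4, Pcdhgb8 and Pcdhgc4, with library values from 0 to 95. Pcdhgc4 had differences from BSMCs of -0.04 in PASMCs and -0.25 in SmMCll, neither called. Of the alpha array, Pcdhac2 alone passed the filter, at 15, 57 and 33 in BSMCs, 69, 72 and 63 in PASMCs and 90, 78 and 101 in SmMCll. It was higher in SmMCll than in BSMCs (1.51, SE 0.41, adjusted p = 0.0127), a call lost without SmMCll replicate 3 or BSMCs replicates 1 and 3 together (adjusted p 0.0536 to 0.182), and was not called in PASMCs against BSMCs (1.12, SE 0.41, adjusted p = 0.0686), where the libraries did not overlap. The other 3 alpha genes in the table, Pcdha5, Pcdha10 and Pcdha12, did not pass the filter.

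**Figure D4:**
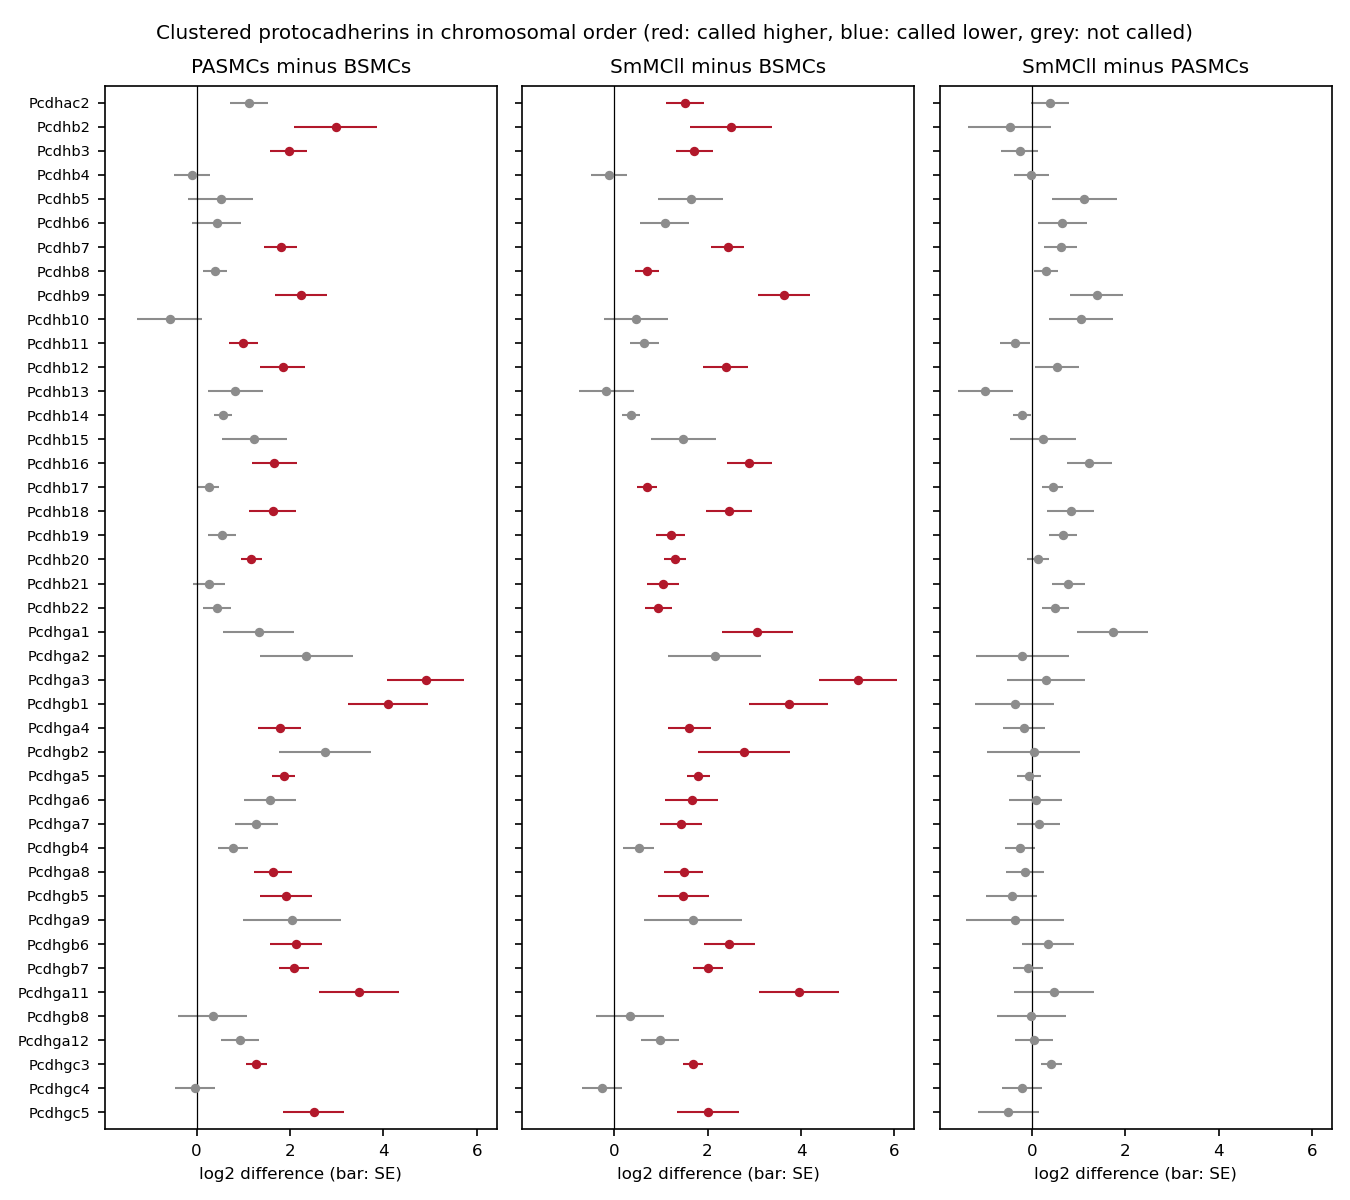
Log2 differences of the 43 clustered protocadherins that passed the filter, in chromosomal order from Pcdhac2 at the top to Pcdhgc5 at the bottom, with bars of 1 SE from limma. Red marks genes called higher and grey genes not called. The PASMCs minus BSMCs panel has 20 red points, the SmMCll minus BSMCs panel 29 and the SmMCll minus PASMCs panel 0.

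The genes that work with these receptors were described from lists. Of 22 cytoplasmic partners of cadherins, 19 were tested, with 7 higher and 0 lower in PASMCs than in BSMCs, 2 higher and 3 lower in SmMCll than in PASMCs, and 6 higher and 1 lower in SmMCll than in BSMCs. The medians were 0.41, -0.03 and 0.25. Called in either direction were 36.8%, 26.3% and 36.8% of the partners, against 22.1%, 16.2% and 41.9% of all genes, so that the last share was below that of all genes. The catenins of the junction itself, Ctnnb1, Ctnna1, Ctnnd1 and Jup, were not called in any comparison, and Ctnnb1 was at 2095, 2952 and 1791 in BSMCs, 3300, 2875 and 2752 in PASMCs and 2241, 2870 and 2913 in SmMCll. Plekha7, which anchors microtubules at junctions through p120, was at 19, 34 and 26 in BSMCs, 176, 207 and 138 in PASMCs and 207, 190 and 209 in SmMCll. It was higher than in BSMCs by 2.69, SE 0.27, adjusted p = 4.48e-05 in PASMCs and 2.93, SE 0.27, adjusted p = 1.31e-05 in SmMCll. Lima1, an actin-binding protein that joins alpha-catenin, was at 508, 604 and 434 in BSMCs, 931, 974 and 801 in PASMCs and 2139, 2322 and 2483 in SmMCll, higher in SmMCll than in PASMCs by 1.36, SE 0.15, adjusted p = 0.000109. Afdn, the afadin that joins nectins to actin, was higher in SmMCll than in PASMCs (1.00, SE 0.15, adjusted p = 0.000826), and Pkp4, an armadillo protein of junctions, was lower (-1.54, SE 0.17, adjusted p = 0.000125).

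The receptor phosphatase Ptprk was higher in PASMCs than in BSMCs (1.00, SE 0.22, adjusted p = 0.00921), a call lost without BSMCs replicates 1 and 3 together (adjusted p = 0.126). Its relative Ptprm was higher by 1.46, SE 0.42, adjusted p = 0.0301, lost in 9 of 20 alternatives, among them those without BSMCs replicate 1 or 3, PASMCs replicate 1 or 2, SmMCll replicate 2 or BSMCs replicates 1 and 3 together (adjusted p 0.0504 to 0.747). Both were higher in SmMCll than in BSMCs under all 20 alternatives (1.35 and 2.23). The scaffold Iqgap1 was higher in PASMCs than in BSMCs by 0.88, SE 0.14, adjusted p = 0.000878, under all 20. Vcl, which encodes vinculin, was higher by 1.09, SE 0.27, adjusted p = 0.0147, lost with limma without the trend and robust options and without BSMCs replicate 1, PASMCs replicate 1 or BSMCs replicates 1 and 3 together (adjusted p 0.056 to 0.351). Magi1, a junction scaffold, was higher by 0.94, SE 0.25, adjusted p = 0.019, lost in a fit of the pair of groups alone and without BSMCs replicate 1 or 3, PASMCs replicate 1 or 2 or BSMCs replicates 1 and 3 together (adjusted p 0.0535 to 0.339). Ctnna3, the alpha-catenin of heart, was lower in SmMCll than in PASMCs (-1.02, SE 0.24, adjusted p = 0.0129), lost without PASMCs replicate 1 or SmMCll replicate 1 or 2 (adjusted p 0.0593 to 0.0658).

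Of 23 other genes of the cadherin superfamily in the table, 16 were tested, with 6 higher and 0 lower in PASMCs than in BSMCs, 0 higher and 2 lower in SmMCll than in PASMCs, and 6 higher and 2 lower in SmMCll than in BSMCs. These were 37.5%, 12.5% and 50% of the 16, against 22.1%, 16.2% and 41.9% of all genes called. Clstn1, a calsyntenin of vesicle transport, was at 1378, 2355 and 2162 in BSMCs, 4082, 3297 and 3427 in PASMCs and 2569, 3278 and 3485 in SmMCll and higher in PASMCs than in BSMCs (0.91, SE 0.19, adjusted p = 0.00669). Dchs1, the ligand of the large cadherin Fat4, was at 236, 158 and 173 in BSMCs, 330, 306 and 492 in PASMCs and 361, 379 and 347 in SmMCll and higher in PASMCs than in BSMCs (0.98, SE 0.22, adjusted p = 0.00912). Cdhr3, known from ciliated airway cells, was at 1, 0 and 0 in BSMCs, 102, 43 and 84 in PASMCs and 19, 36 and 34 in SmMCll, almost without reads in BSMCs. Fat1, a giant cadherin of the Hippo pathway, was lower in SmMCll than in PASMCs (-0.59, SE 0.14, adjusted p = 0.0107), a call lost without PASMCs replicate 3 (adjusted p = 0.0553). The desmosomal Dsg2 and the flamingo-type Celsr3 were higher in PASMCs and in SmMCll than in BSMCs, at values of at most 82 and 37. The PASMCs call of Dsg2 was lost in a fit of the pair of groups alone and without BSMCs replicate 1, PASMCs replicate 1 or BSMCs replicates 1 and 3 together (adjusted p 0.0546 to 0.317), and the SmMCll call of Celsr3 with a pseudocount of 10 (adjusted p = 0.0888).

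Of 11 enzymes that cut cadherins, all tested, 3 were higher and 2 lower in PASMCs than in BSMCs, 4 higher and 0 lower in SmMCll than in PASMCs, and 7 higher and 2 lower in SmMCll than in BSMCs. These were 45.5%, 36.4% and 81.8% of the 11, where 22.1%, 16.2% and 41.9% of all genes were called. Adam10, the sheddase of N- and E-cadherin and of gamma protocadherins, was at 668, 698 and 595 in BSMCs, 1076, 890 and 805 in PASMCs and 1443, 1624 and 1584 in SmMCll. Its SmMCll libraries were above all others, and the difference from BSMCs was 1.25, SE 0.14, adjusted p = 5.06e-05. Mmp3, a stromelysin, was at 679, 563 and 587 in BSMCs, 1541, 1496 and 1970 in PASMCs and 3008, 2917 and 3423 in SmMCll, higher in SmMCll than in PASMCs by 0.91, SE 0.14, adjusted p = 0.000917. Mmp9, a gelatinase that leukocytes also make, was at 514, 594 and 425 in BSMCs, 18, 10 and 16 in PASMCs and 22, 76 and 32 in SmMCll, with BSMCs highest, as the leukocyte markers were.

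Among 16 regulators of the clustered locus, 4 were higher and 0 lower in PASMCs than in BSMCs, 0 higher and 1 lower in SmMCll than in PASMCs, and 8 higher and 0 lower in SmMCll than in BSMCs. Called in either direction were 25%, 6.25% and 50% of the 16, against 22.1%, 16.2% and 41.9% of all genes. All of the calls against BSMCs were higher, where 13.2% of all genes were higher in PASMCs and 23.7% in SmMCll. Ctcf, at 930, 1022 and 586 in BSMCs, 1214, 1050 and 995 in PASMCs and 996, 1033 and 1165 in SmMCll, and the cohesin subunits Rad21 and Smc3 were not called in any comparison. The cohesin subunit Stag1 was higher in SmMCll than in BSMCs by 1.40, SE 0.27, adjusted p = 0.00168, under all 20 alternatives. The subunits Stag2 (0.91, SE 0.30, adjusted p = 0.0307) and Smc1a (0.57, SE 0.18, adjusted p = 0.0259) were also higher there. The calls of Stag2 and Smc1a were lost in 7 and 8 of 20 alternatives. Smchd1, a silencer of the arrays, was at 188, 357 and 168 in BSMCs, 650, 411 and 348 in PASMCs and 528, 599 and 655 in SmMCll and was higher in PASMCs (1.01, SE 0.29, adjusted p = 0.0305) and SmMCll (1.40, SE 0.29, adjusted p = 0.00313) than in BSMCs. The PASMCs call was lost in 9 of 20 alternatives, among them those without BSMCs replicate 1 or 3, PASMCs replicate 1 or 2, SmMCll replicate 2 or BSMCs replicates 1 and 3 together (adjusted p 0.051 to 0.575), and the SmMCll call without BSMCs replicates 1 and 3 together (adjusted p = 0.0837). The histone methyltransferase gene Setdb1 was likewise higher in PASMCs (0.94, SE 0.24, adjusted p = 0.0175), lost in a fit of the pair of groups alone and without PASMCs replicate 1 or BSMCs replicates 1 and 3 together (adjusted p 0.0553 to 0.0842). So was the DNA methyltransferase gene Dnmt1 (0.76, SE 0.19, adjusted p = 0.0152), lost without BSMCs replicate 1, PASMCs replicate 1 or 2 or BSMCs replicates 1 and 3 together (adjusted p 0.0524 to 0.157). Among 4 nectins, 0 were called in the comparisons with PASMCs, and Nectin3 was higher in SmMCll than in BSMCs (0.51, SE 0.16, adjusted p = 0.0267), a call lost in 8 of 20 alternatives, among them those without BSMCs replicate 3, SmMCll replicate 2 or 3 or BSMCs replicates 1 and 3 together (adjusted p 0.0503 to 0.182).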

How the data were processed

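The authors deposited 1 table of normalized counts of reads for each gene, given as whole numbers, whose unit is recorded here as a score because the values are scaled and not raw counts. Per the submitters' processing notes, the tools were DESeq2 1.36.0, featureCounts 2.0.4, Picard 3.1.1, STAR 2.7.11a and Trimmomatic 0.39, in no stated order or role, with the build mm39. Library factors were recovered from the spacing of the whole numbers, which gave the depth (6.39 M to 10.02 M reads), tested on simulated data.

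The filter (10 or more in 3 or more libraries) left 15647 genes, a pseudocount of 1 was added, and log2 values of all 9 libraries entered 1 limma fit (3.58.1, R 4.3.3) with trended, robust eBayes and Benjamini-Hochberg adjustment. Tables and plots used Python 3.11.15, numpy 2.4.6, pandas 2.3.3 and matplotlib 3.10.9.

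The genes and lists were chosen with earlier results of these data known. Library values are printed for cadherin and protocadherin genes called in a comparison or with a mean of at least 100 in a group. Of the other lists only some genes are named, in part without library values. Called genes left unnamed there include Clstn3, Cdhr1 and Celsr2, which changed more than some named genes. Exon lengths were those of GENCODE vM21, matched by identifier for all 78 genes. Promoter windows on mouse chromosome 18, where the clustered arrays lie, are not used here. No 2 libraries of a group were copies (chi-square per gene 6.55 to 32.9 over 9 pairs). Alternatives were pseudocounts of 0.5 and 10, no filter or a stricter one (at least 50), quantile normalization, unscaled values (each divided by its library factor), limma without trend and robust options, the compared groups alone, array weights, a replicate block and each library left out. Leaving out BSMCs replicates 1 and 3 together was chosen after seeing the data.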

Additional observations from a re-analysis of the deposited data

How the results depend on the processing

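The number of cadherin and protocadherin genes called depended on the libraries and on the fit. In PASMCs against BSMCs it was 28 as reported, 13 in a fit of the compared groups alone, 17 without BSMCs replicates 1 and 3, and 16 to 40 when single libraries were left out, where the share of all genes called was 22.1%, 12.3%, 11.2%, and 11% to 42.8%. In SmMCll against PASMCs it was 16 as reported, 10 with the stricter filter, which tests fewer genes, 26 in a fit of the compared groups alone, 26 with array weights, 25 without BSMCs replicates 1 and 3, and 8 to 19 with single libraries left out, against 16.2%, 17.8%, 27.8%, 32.5%, 27.9%, and 10.7% to 20.6% of all genes. In SmMCll against BSMCs it was 46 as reported and 30 to 47 with single libraries left out, against 41.9%, and 27.9% to 53.5% of all genes. Calls in the same direction against both other groups numbered 41, where Cdh4, Cdh11 and Pcdh20 stood apart in more than 1 group and count for each. The shares of all genes for each group and direction were given above, only for the fit as reported. The count of 41 ran from 24 to 53, with 24 to 50 when single libraries were left out and 53 with array weights. Some alternatives remove libraries or genes and others do not, and the cause of these changes was not tested.

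Of the called genes, 10 of 28 (PASMCs against BSMCs), 8 of 16 (SmMCll against PASMCs) and 23 of 46 (SmMCll against BSMCs) were called under all alternatives in which they were tested, and no called direction was reversed. Unscaled values moved the median log2 difference of all genes to 0.27, -0.02 and 0.22 in the same order, with 26, 14 and 35 of these genes called. Replicate numbers did not pair the libraries: correlations of same-numbered libraries ran from -0.124 to 0.136, 1 of 9 was over 0.1, 2 of 9 libraries had their highest correlation with a library of the same number, and 0 did so within each of the other groups. With the replicate number as a block the calls were 29, 16 and 45, and 42 in the same direction against both.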
